A study of Mus musculus with 32 samples.

Results

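Gpr101 knockouts were compared with wild-type littermates after both had eaten a high-fat diet, across every gene expressed in the hypothalamus. The comparison took all 17 libraries labelled with that diet, 9 knockout (KO_HFD) and 8 wild type (WT_HFD), of 32 in the series. The others were the same genotypes on control diet, 8 knockout (KO_CD) and 7 wild type (WT_CD). All mice were males of the strain C57BL/6NTac, each library came from the hypothalamus of a separately numbered mouse, and the knockouts were hemizygous because the gene is X-linked. The high-fat diet drew 60% of its energy from fat and was given from 7 weeks of age until the mice were killed. In each genotype 1 mouse was 149 days old and the others 150. The labels name no driver or tissue restriction for the knockout and do not say which part of the gene was removed.

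Gpr101 encodes a receptor with no settled natural ligand that couples to Gs, the G protein that activates adenylyl cyclase and so raises cAMP, which acts through protein kinase A and the transcription factor CREB. The receptor is found in hypothalamic neurons, and gain of the human gene causes growth hormone excess. The hypothalamus sets food intake, energy use, body rhythms and pituitary hormone release through small groups of neurons, each defined by the peptide it makes. The series title names insulin resistance and diet-induced obesity as its subject, and this comparison asks which hypothalamic transcripts differ with the receptor gone during a fat-rich diet.

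Reads on genes ran from 26.39 to 28.86 M (megareads) per knockout library and from 25.33 to 32.95 M per wild-type library, so that 1 read was worth 0.0359 CPM (reads scaled to 1 M on genes) at the median depth. Values below are normalized counts, which are reads divided by a library size factor, and log2 fold changes are of knockout over wild type on the scale of log2(normalized count + 1). Markers of the labelled tissue passed the filter on low values, all 9 for the preoptic area, all 12 for the ventromedial nucleus and 11 of 12 for the arcuate nucleus. No Hox gene, which mark hindbrain and spinal cord, passed it. Markers of neighbouring regions passed as well, all 12 for thalamus, all 8 for striatum, all 7 for habenula and 9 of 10 for cortex and hippocampus. Passing the filter therefore does not tell the hypothalamus from tissue beside it. Log2 values of the 17 libraries correlated pairwise at no less than 0.9871. Library WT_HFD replicate 6 stood apart from the rest in the balance of long and short transcripts, as described below, and had the lowest quality weight in limma-voom, 0.476, followed by KO_HFD replicate 8 at 0.565.

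Loss of Gpr101 was the 1 difference that passed the test. In wild type the gene (GRCm38, chromosome X, 57496668 to 57503757, minus strand, protein-coding) had a lowest, median and highest normalized count of 2738, 2839 and 2988. In the knockouts it was at 0 in 8 libraries, and 1 read lay on it in KO_HFD replicate 4. The groups did not overlap, and every library carried the level of its label. Gpr101 fell by 11.37 on the log2 scale (SE 0.12, limma adjusted p = 3.57e-50), a size that depends on the pseudocount of 1 because the knockout is at the floor. Gpr101 was also the only gene with reads in all libraries of one genotype and in at most 1 of the other.

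Of 19928 genes tested, limma called 1 at an adjusted p under 0.05, which is 0.00502% of them. The smallest adjusted p of the other 19927 was 0.842. An unadjusted p under 0.05 was reached by 1026 genes (5.15%), 493 of them higher in the knockout (2.47%) and 533 lower (2.67%). The median log2 fold change over all genes was -0.00, and 48.5% of the genes lay above 0. These shares are the background against which the gene groups below are read.

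**Figure D1:**
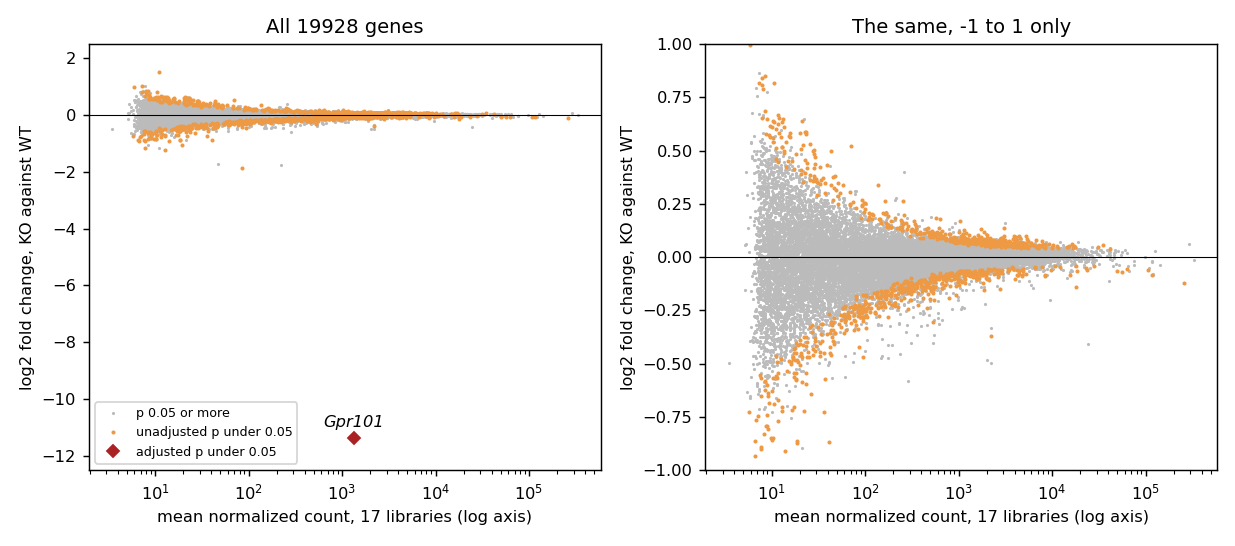
Log2 fold change of knockout over wild type on high-fat diet against the mean normalized count of the 17 libraries (log axis), 1 point per gene tested, over the full range on the left and from -1 to 1 on the right. Gpr101 at -11.37 is the only gene past an adjusted p of 0.05, and the cloud of the other genes narrows around 0 as counts rise.

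The confidence intervals say how large a difference could have gone uncalled. For 12603 genes (63.2%) the 95% interval lay within a 1.2-fold difference in both directions, and for 17028 genes (85.4%) it lay within 1.5-fold. Among the 6100 genes with a mean of at least 1000 normalized counts, 6047 (99.1%) were bounded within 1.2-fold, and their median SE was 0.03 on the log2 scale. Among the 5016 genes with a mean under 50 the median SE was 0.22, so that differences well above 1.2-fold could go undetected there. These intervals are for single genes and are not adjusted for the number of genes.

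The groups did not overlap for 4 genes (0.0201%), of which 3 had a mean of at least 50 normalized counts, Gpr101 included. Prpf40b, which encodes a component of the spliceosome, had counts of 2472, 2608 and 2648 in the knockouts (lowest, median and highest) and of 2652, 2721 and 2811 in wild type. Every knockout library thus lay below every wild-type library, and the log2 ratio was -0.07 (SE 0.02, adjusted p = 0.948). Pstpip2, which encodes an adaptor protein of myeloid cells, had counts of 166, 176 and 192 in the knockouts and of 133, 155 and 161 in wild type. The ratio was 0.20 on the log2 scale (SE 0.07, adjusted p = 0.948), with every knockout above every wild type. The other gene was the predicted gene Gm10232 on chromosome 17, named here after its values were seen, with a mean of 22.9 normalized counts and a log2 ratio of 0.59 (SE 0.14, adjusted p = 0.842).

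The genes of smallest p above 0 did not pass the test. Crebrf, a regulator of the CREB3 family linked to energy balance, had counts of 2772, 2959 and 3075 in the knockouts and of 2682, 2735 and 2851 in wild type. All 9 knockouts lay above the wild-type median, the groups overlapped, and the value was 0.09 on the log2 scale (SE 0.02, adjusted p = 0.871). Cpm, a carboxypeptidase of the cell surface, had counts of 249, 275 and 297 against 191, 227 and 265, a log2 ratio of 0.26 (SE 0.07, adjusted p = 0.871). Lrrtm2, an organizer of excitatory synapses, had a log2 fold change of 0.12, Pgap1, which remodels GPI anchors, of 0.10, Elavl4, a neuronal RNA-binding protein, of 0.08, and Ankrd26 of 0.11. The other 4 of the 10 lie on the X chromosome, as Gpr101 does. They were Prrg3 (0.10), the kinase gene Pak3 (0.08), the GABA-A receptor subunit gene Gabra3 (0.08) and Morc4 (0.20). The X chromosome held 680 of the 19928 genes tested, Gpr101 included.

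The genes of smallest p below 0 did not pass the test either. Lrp10, a receptor that cycles between the Golgi and endosomes, had counts of 811, 896 and 924 in the knockouts and of 890, 966 and 1059 in wild type. All 9 knockouts lay below the wild-type median, and the log2 ratio was -0.14 (SE 0.04, adjusted p = 0.871). Ramp1, a partner that turns the calcitonin receptor-like receptor into a receptor for CGRP, had counts of 883, 961 and 1042 against 965, 1056 and 1118, again with all 9 knockouts below the wild-type median and overlapping groups (-0.13, SE 0.03, adjusted p = 0.871). The rest of the 10 ranged from -0.33 for Prrg4 to -0.09 for Acsbg1, an acyl-CoA synthetase of brain. Between them were the lysosomal protective protein gene Ctsa (-0.12), the thyroid hormone-regulated corepressor gene Hr (-0.19), the potassium channel subunit gene Kcne1l (-0.20), Zfp64 (-0.19), Npepl1 (-0.17) and Tmem80 (-0.11). On control diet Lrp10 and Ramp1 had log2 fold changes of -0.00 and -0.01, and the differences between diets had unadjusted p-values of 0.0127 and 0.0225 in limma, each with an adjusted p of 0.999. These genes were chosen for a small p on high-fat diet, which is a part of that difference. The unadjusted p-values are therefore not independent of the choice.

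Among peptides that stimulate feeding, 10 of 12 genes were expressed well enough to test, none was called, and the median log2 fold change was -0.02 with 4 above 0. Npy, encoding neuropeptide Y of the hunger neurons of the arcuate nucleus, had counts of 185, 251 and 270 in the knockouts and of 225, 267 and 308 in wild type. The groups overlapped, 7 of 9 knockouts lay below the wild-type median, and the log2 fold change was -0.14 (95% interval -0.41 to 0.14). Agrp, encoding the melanocortin antagonist made by the same neurons, had counts of 75, 101 and 119 against 64, 112 and 132, with a log2 fold change of -0.07 (-0.36 to 0.23). Hcrt, the orexin precursor, stood at -0.01 (-0.23 to 0.21), and Pmch, the precursor of melanin-concentrating hormone, at 0.05 (-0.19 to 0.29). The opioid precursors Pdyn and Penk were at -0.06 and -0.02, Pnoc, the nociceptin precursor, at 0.07, Gal, encoding galanin, at 0.05 and Qrfp at -0.12. Nts, encoding neurotensin, which the list holds although it is known to lower food intake, had the smallest p of the list and its highest log2 fold change. Its counts were 548, 650 and 976 against 557, 575 and 732. In 8 of 9 knockouts it lay above the wild-type median, and its log2 fold change was 0.18 (SE 0.08, unadjusted p = 0.0290, adjusted p = 0.948), which ran from 0.11, without KO_HFD replicate 7, to 0.22 over the libraries left out one at a time.

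Among peptides that restrain feeding, 15 of 18 genes were tested, none was called, the median was -0.02 and 6 lay above 0. Pomc had the smallest p; its protein is cut into alpha-MSH, which curbs appetite. Its counts were 1389, 1980 and 2578 in the knockouts and 1534, 2529 and 3215 in wild type. In 8 of 9 knockouts it lay below the wild-type median, but the groups overlapped over most of their range. The fold change was 0.773 (95% interval 0.627 to 0.952, unadjusted p = 0.0171), and the adjusted p of 0.948 did not pass. Cartpt, encoding the CART peptide, had counts of 4034, 4774 and 5294 against 3945, 4721 and 5640, a fold of 0.987 (0.892 to 1.09). Nmb, encoding neuromedin B, was at -0.23 on the log2 scale, Cck, encoding cholecystokinin, at -0.17, Prlh, encoding prolactin-releasing peptide, at -0.32, Nms at -0.17 and Trh, encoding thyrotropin-releasing hormone, at -0.06. Crh, encoding corticotropin-releasing hormone, was at 0.10, Npb at 0.29, Grp at 0.14, Bdnf at 0.06, Ucn3 at 0.06, Adcyap1, encoding PACAP, at 0.01, Tac1 at -0.04 and Nucb2, the nesfatin precursor, at -0.00.

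**Figure D2:**
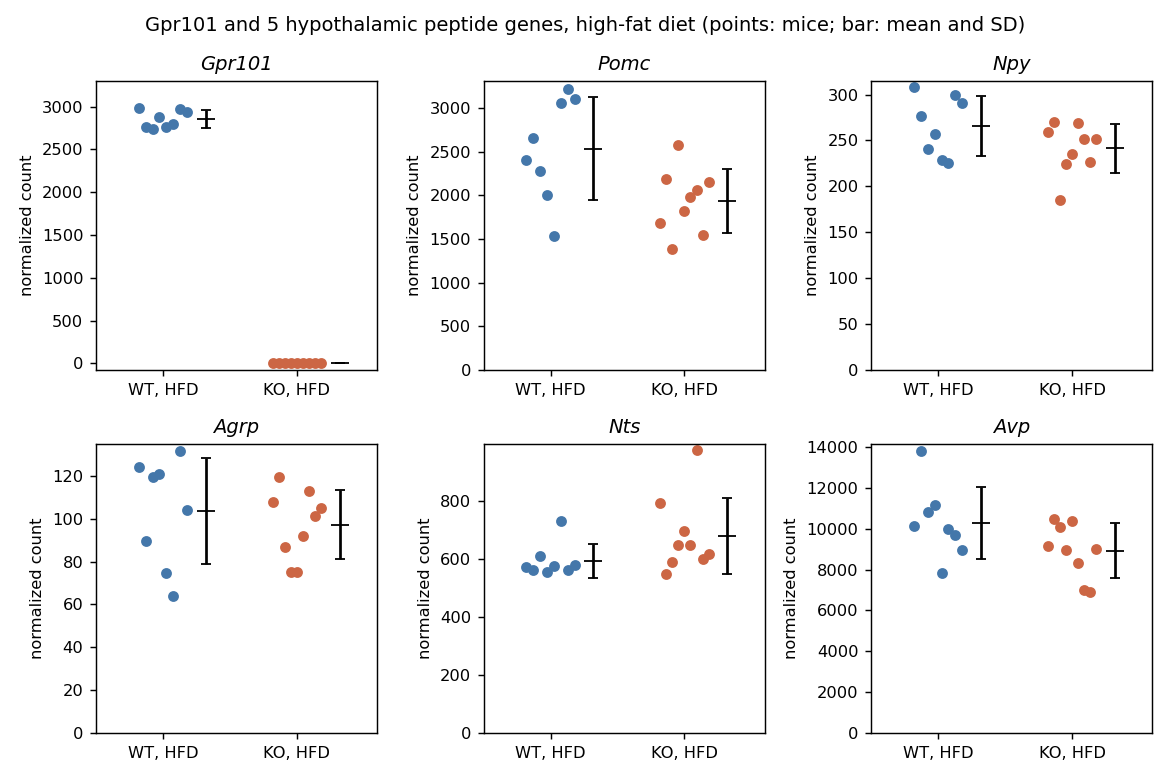
Normalized counts of Gpr101 and of 5 peptide genes in each mouse on high-fat diet (points), with the mean and SD of each group (bars), all on linear axes. Of the 6 genes only Gpr101 separates the genotypes, and for Pomc 8 of 9 knockouts lie below the wild-type median of 2529 and the ranges overlap.

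Receptors for feeding signals showed no called member among 25 tested of 26, a median of 0.01 and 14 above 0. Lepr, the leptin receptor gene, had counts of 147, 196 and 355 in the knockouts and of 163, 237 and 333 in wild type, a log2 fold change of -0.16 with a 95% interval from -0.51 to 0.19. Insr, encoding the insulin receptor, was bounded closely, at 0.03 (-0.03 to 0.08). The melanocortin receptor genes Mc4r and Mc3r had values of 0.10 (-0.12 to 0.31) and 0.13 (-0.05 to 0.32). The 2 receptor partners Ramp1 and Ramp2 had the smallest p-values of the list, and Ramp2 had counts of 174, 204 and 239 against 203, 246 and 279 (-0.23, SE 0.08, adjusted p = 0.948). Leptin signalling genes had a median of -0.00, with 8 of 16 above 0 and 0 at an unadjusted p under 0.05. Insulin signalling genes had a median of 0.01, with 20 of 30 above 0, or 17 of 30 without WT_HFD replicate 6. Pik3ca, the catalytic subunit of PI3 kinase, had the smallest p there (0.09, SE 0.03), and Tsc2, a brake on mTOR, the second smallest (-0.06).

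The pathway of the receptor itself was next, from G protein to CREB. Of 38 genes for Gs and cAMP signalling all were tested, none was called, the median was 0.02, and 23 lay above 0. Gnas, encoding the Gs alpha subunit, had counts of 5551, 6357 and 6767 in the knockouts and of 5760, 6509 and 6840 in wild type, a fold of 0.986 (95% interval 0.939 to 1.03). Creb1, encoding CREB, had counts of 1539, 1672 and 1818 against 1406, 1586 and 1631. In 8 of 9 knockouts it lay above the wild-type median (0.11, SE 0.04, unadjusted p = 0.00503, adjusted p = 0.948). Pde1c, a phosphodiesterase that degrades cAMP, lay above the wild-type median in all 9 (0.13, SE 0.05, adjusted p = 0.948). The 10 adenylyl cyclase genes tested had a median of 0.01 and the 20 phosphodiesterase genes of 0.04. Other G protein subunits and regulators had a median of 0.00, with 18 of 29 above 0. Other orphan and constitutively active receptors had a median of -0.00, with 16 of 33 above 0 and 1 at an unadjusted p under 0.05, which was Gpr37l1 of astrocytes (-0.07).

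The transcription factor at the end of this pathway binds the cAMP response element, spelled TGACGTCA, which reads the same on both strands. This search was added after the data were seen. It covered the 250 bases before each start in RefSeq promoter windows of GRCm38.p6, in which 508 of 32851 (1.55%) held the element. The lists searched were those of feeding peptides, secretion, growth hormone, stress, immediate early genes, cAMP signalling, the suprachiasmatic nucleus and the clock. Of their 155 tested genes 128 had such a window, and the others could not be searched. All 10 tested genes found to hold the element are shown. Each is given as 30 bases of the gene's own strand (20 in Hlf, where the window ends) with the element in capitals.
Sst (chr16:23890874-23890903, minus strand): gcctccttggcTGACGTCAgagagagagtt
Cartpt (chr13:99900777-99900806, minus strand): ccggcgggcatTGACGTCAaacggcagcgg
Scg2 (chr1:79440076-79440105, minus strand): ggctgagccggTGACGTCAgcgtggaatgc
Pcsk1 (chr13:75089768-75089797, plus strand): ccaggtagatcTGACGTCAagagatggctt
Prkar1a (chr11:109650889-109650918, plus strand): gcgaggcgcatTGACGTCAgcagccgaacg
Dusp1 (chr17:26508597-26508626, minus strand): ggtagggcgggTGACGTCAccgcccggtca
Btg2 (chr1:134079303-134079332, minus strand): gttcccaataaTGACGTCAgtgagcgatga
Chgb (chr2:132781559-132781588, plus strand): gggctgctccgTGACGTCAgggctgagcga
Sstr2 (chr11:113619258-113619287, plus strand): ccaagctgccgTGACGTCAcgggcgggggc
Hlf (chr11:90390918-90390937, minus strand): ggtgcgggcccTGACGTCAc
In these windows the element began 48 bases before the start in Sst, 112 in Cartpt, 68 in Scg2, 78 in Pcsk1, 49 in Prkar1a, 143 in Dusp1, 166 in Btg2, 72 in Chgb, 58 in Sstr2 and 9 in Hlf.

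Genes with the element had values near those of genes without it. The 361 tested genes that held it had a median log2 fold change of 0.00, with 50.7% above 0 and 4.71% at an unadjusted p under 0.05. The 12882 tested genes whose windows lacked it had a median of -0.00, with 48.2% above 0 and 5.58% at that p. Of the 10 genes shown, 3 lay above 0, 7 below, and 0 reached an unadjusted p under 0.05. Sst, encoding somatostatin, had counts of 3728, 4187 and 4453 in the knockouts and of 3863, 4495 and 4900 in wild type, and its log2 fold change was -0.09 (95% interval -0.20 to 0.02). Pcsk1, encoding the protease that cuts Pomc and other precursors, was at 0.01 (-0.05 to 0.08), Scg2, encoding a granin of secretory vesicles, at -0.01 (-0.06 to 0.04), and Prkar1a, the regulatory subunit of protein kinase A, at 0.03 (-0.01 to 0.06). Dusp1, encoding a phosphatase of MAP kinases that is induced by activity, varied far more, with counts of 553, 713 and 1314 against 598, 926 and 1205 (-0.24, -0.65 to 0.16), as did Btg2, an antiproliferative gene also induced by activity (-0.19, -0.70 to 0.32). Sstr2, encoding a somatostatin receptor, had the smallest p of the 10, with counts of 205, 253 and 292 against 232, 278 and 319 (-0.14, -0.29 to 0.01, unadjusted p = 0.0632). Chgb, another granin gene, was at -0.06 (-0.13 to 0.01) and Hlf, a transcription factor of the clock, at 0.01 (-0.08 to 0.09). A match of letters describes the window and does not show that the factor binds there.

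Immediate early genes, which neurons switch on within minutes of activity, lay low together without any call. Of 22 tested, 20 had a log2 fold change below 0 and the median was -0.12, with 1 at an unadjusted p under 0.05, Homer1, which was above 0 (0.09). The list mean was 8.96 ± 0.28 in the knockouts (SD, n = 9) and 9.09 ± 0.32 in wild type (SD, n = 8) on the log2 scale, so the difference was smaller than the spread between mice. Fos had counts of 849, 1335 and 1892 against 998, 1547 and 1799, and Egr1 of 1422, 2564 and 3331 against 1644, 2940 and 3421. Ier2, of the smallest p after Homer1, was at -0.41 (SE 0.26). Because such genes vary together between mice, the 20 members are not 20 independent observations. The median without any single library ranged from -0.19 to -0.07. On control diet the median of the same list was -0.61, also below 0.

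Hormone axes gave small values. In the growth hormone axis 17 genes were tested, the median was -0.00 and 8 lay above 0. Ghrh, encoding growth hormone-releasing hormone, had counts of 82, 113 and 123 against 79, 116 and 140 (-0.12, 95% interval -0.33 to 0.10). Gsx1, a transcription factor needed for Ghrh neurons, was at -0.28 (SE 0.13, unadjusted p = 0.0321, adjusted p = 0.948), and the somatostatin receptor gene Sstr2 at -0.14. Among 12 genes of the reproductive axis 9 lay above 0, with a median of 0.07 and 3 at an unadjusted p under 0.05, all above 0. Leaving out single libraries moved that median from 0.03, without WT_HFD replicate 3, to 0.08. Among these were Pgr, encoding the progesterone receptor (0.10), and Prlr, encoding the prolactin receptor (0.11). Pgr had counts of 1037, 1098 and 1130 in the knockouts and of 961, 1024 and 1090 in wild type, with all 9 knockouts above the wild-type median (SE 0.03, adjusted p = 0.948). On control diet Pgr was at -0.07, and the difference between diets had an unadjusted p of 0.00113 and an adjusted p of 0.999 in limma. Pgr was named for its small p on high-fat diet, so this unadjusted p is not independent of that choice.

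Stress and posterior pituitary genes had a median of -0.03, with 6 of 17 above 0. Avp, encoding vasopressin, had counts of 6904, 9014 and 10481 in the knockouts and of 7821, 10064 and 13814 in wild type, and a log2 fold change of -0.20 (95% interval -0.42 to 0.02). Oxt, encoding oxytocin, was at -0.13 (-0.51 to 0.24), and its receptor gene Oxtr at 0.13 (SE 0.07). Nr3c1, encoding the glucocorticoid receptor, was at 0.06. Peptide processing genes and granins, the shared machinery of peptide secretion, were tightly bounded, with 14 tested values between -0.06 for Chgb and 0.03 and a median of -0.01. Clock genes had a median of -0.00, thyroid hormone genes of -0.01, and dopamine and monoamine genes of -0.01, with 0, 2 and 1 members at an unadjusted p under 0.05.

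Lipid and sugar metabolism genes were little different. Fatty acid oxidation genes and targets of PPAR, the nuclear receptors that sense fatty acids, had 21 of 25 members below 0, a median of -0.05 and 2 at an unadjusted p under 0.05. These were Plin2, which coats lipid droplets, with counts of 257, 299 and 315 against 274, 323 and 370 (-0.12, SE 0.06), and Pdk4, which shuts glucose carbon out of the mitochondria, with 198, 250 and 282 against 245, 273 and 291 (-0.15, SE 0.07). Their adjusted p was 0.948 in limma. Fatty acid synthesis genes had a median of -0.00 (11 of 24 above 0), with Srebf1, their main transcription factor, at -0.06. Cholesterol synthesis genes had a median of -0.01 and 2 members at an unadjusted p under 0.05, Cyp51 (0.08) and Sqle (0.06). Glucose and monocarboxylate transport genes had a median of 0.01 with 14 of 22 above 0, and Slc2a3, the neuronal glucose transporter, was at 0.06. Genes of the unfolded protein and heat shock responses had 17 of 22 above 0 and a median of 0.03.

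Cell type markers were read next, and in bulk tissue fewer cells of a type and less RNA per cell cannot be told apart. Pan-neuronal genes had a median of 0.02 (8 of 12 above 0), markers of GABA neurons of 0.02 and of glutamate neurons of 0.02. Gad1, encoding the GABA-making enzyme, had a 95% interval from -0.06 to 0.06, and Slc17a6, encoding the vesicular glutamate transporter of the hypothalamus, from -0.01 to 0.09. Oligodendrocyte genes had a median of 0.02 (9 of 15 above 0), with Ermn at 0.13 (SE 0.05) the 1 member at an unadjusted p under 0.05. Their precursors had a median of 0.02, endothelium of -0.04, mural cells of -0.00 and tanycytes, the glia that line the third ventricle, of -0.06. None of these lists held a called gene.

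Astrocyte markers had 14 of 15 members below 0, a median of -0.04 and 4 at an unadjusted p under 0.05, all lower. The 4 were Ntsr2 (-0.08), Agt, encoding angiotensinogen (-0.08), the gap junction gene Gja1 (-0.05) and Atp1b2 (-0.04). Ntsr2, a neurotensin receptor of astrocytes, had counts of 3980, 4404 and 4455 in the knockouts and of 4371, 4607 and 4862 in wild type, with all 9 knockouts below the wild-type median (adjusted p = 0.948). The list mean was 12.53 ± 0.03 in the knockouts and 12.58 ± 0.04 in wild type on the log2 scale (SD), where WT_HFD replicate 2 stood highest at 12.66. Microglia markers had 13 of 15 below 0, a median of -0.06 and 4 at that p, all lower. Among them C1qc, of the complement system, had counts of 625, 699 and 756 against 665, 757 and 838 (-0.13, SE 0.04), Csf1r, the receptor microglia need to survive, was at -0.08 (SE 0.03) and Tmem119 at -0.14. Their list mean was 8.93 ± 0.06 against 8.99 ± 0.09 (SD). Leaving out any single library gave medians from -0.04 to -0.03 for astrocytes and from -0.08 to -0.04 for microglia. On control diet the medians were -0.02 for astrocytes and 0.01 for microglia. Markers of 1 cell type can vary together between mice, so the members below 0 are not independent observations.

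Ependymal markers, genes of the motile cilia on the ventricle wall, had 9 of 11 below 0 and a median of -0.09, with Rsph1 (-0.20, SE 0.07), Tmem212 (-0.23, SE 0.10) and Dnah6 (-0.22) at an unadjusted p under 0.05. Rsph1 had counts of 213, 285 and 350 against 288, 332 and 368. Over the libraries left out one at a time the ependymal median ran from -0.13 to -0.05, the latter without KO_HFD replicate 8. On control diet the ependymal median was -0.12.

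Genes of gliosis and inflammation had a median of -0.13 with 3 of 15 above 0 and 0 at an unadjusted p under 0.05. Gfap, the filament gene of reactive astrocytes, had counts of 5339, 5711 and 7258 against 4967, 6667 and 8515 (-0.15, 95% interval -0.34 to 0.05), and the chemokine gene Cxcl10 was at -0.73 with a highest count of 22. Interferon and MHC class I genes had a median of -0.07 with 3 of 21 above 0 and 2 at that p, the peptide-loading genes Tapbp (-0.11) and Tap2 (-0.14). Single libraries moved both medians, from -0.17 to -0.06 for gliosis and inflammation (the latter without WT_HFD replicate 1) and from -0.10 to -0.02 for interferon and MHC class I (the latter without WT_HFD replicate 2). In wild type both list means were high in the mice with high markers of the meninges, the membranes around the brain. In WT_HFD replicates 1, 2, 4 and 8, where the meningeal list mean was 8.94 to 9.62 on the log2 scale, the gliosis list stood at 8.59 to 8.73 and the interferon list at 8.28 to 8.58, and in the other wild-type mice at 8.20 to 8.39 and 7.96 to 8.16. KO_HFD replicate 2, the knockout with the most meningeal signal (9.62), was also the highest knockout in both lists, at 8.63 and 8.40. The other knockouts did not follow the meningeal markers throughout. The interferon list stood at 8.29 and 8.26 in KO_HFD replicates 7 and 6 (meninges 7.69 and 7.07). In replicates 1, 8 and 3 it stood at 8.21, 8.22 and 8.02 (8.84, 8.82 and 8.27). Replicates 4, 5 and 9 were low in both, at 8.10, 8.08 and 8.11 (7.17, 7.05 and 7.31). In the fit with composition covariates described in the closing section the medians of the gliosis and interferon lists were -0.06 and -0.02. That fit holds 4 covariates at once, so the part of the meninges alone was not tested.

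**Figure D3:**
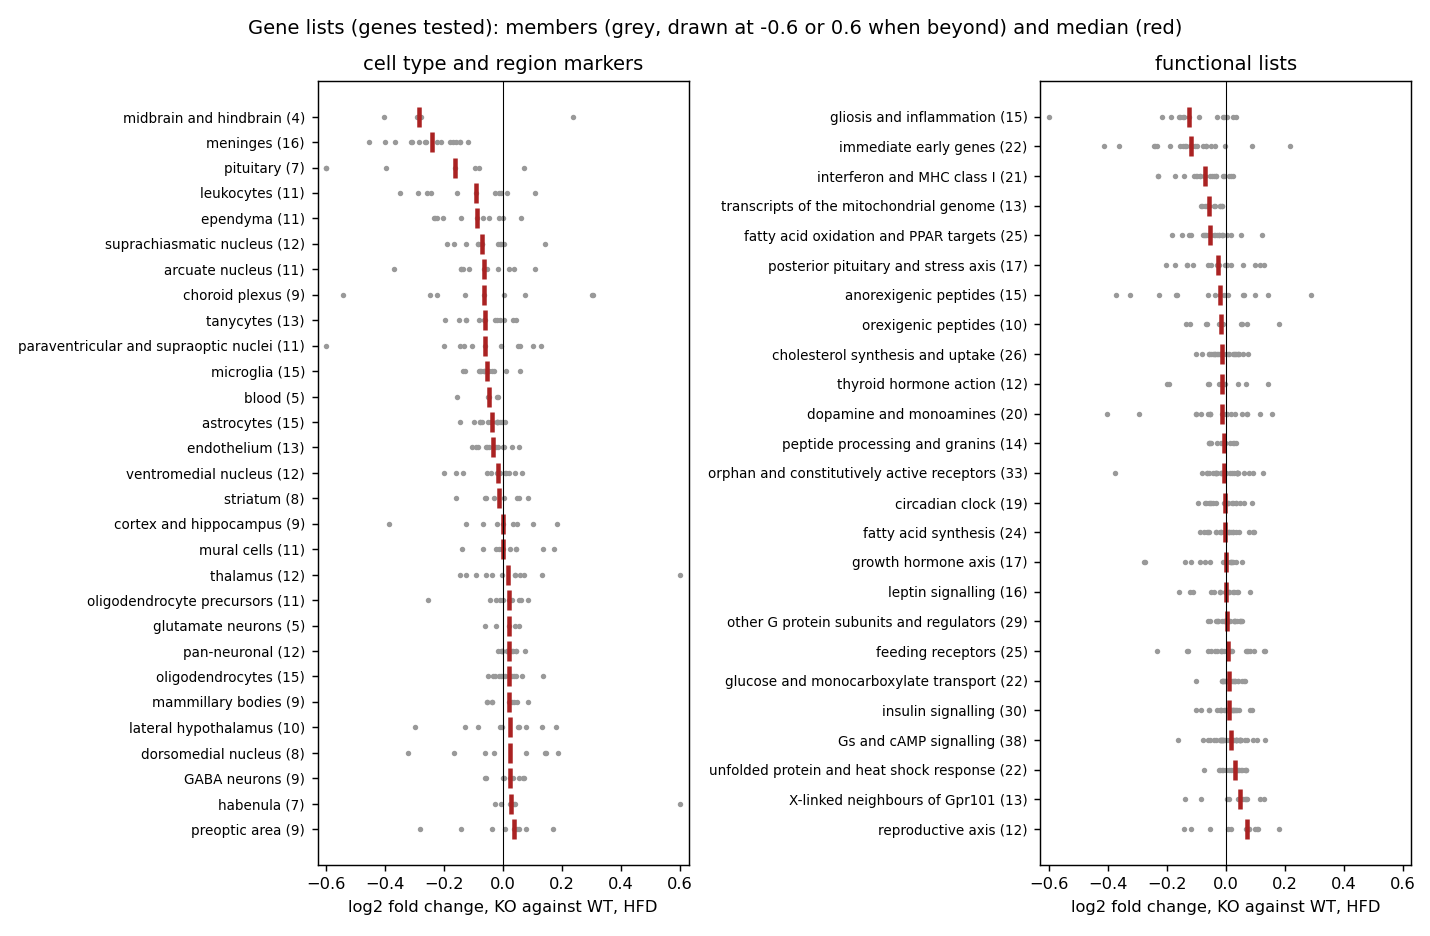
Log2 fold changes of the tested members (grey points) and their median (red bar) for 29 lists of cell type or region markers on the left and 25 functional lists on the right, with the number tested in brackets. Medians run from -0.29 for midbrain and hindbrain (-0.50 to -0.04 without single libraries) to 0.07 for the reproductive axis (0.03 to 0.08), and members lie on both sides of 0 in all lists but meninges, blood and mitochondrial transcripts.

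Markers of the meninges and of the pituitary had the list means that varied most between mice in both genotypes. The 16 genes of the meninges were all below 0 with a median of -0.24, yet 0 had an unadjusted p under 0.05. Their list mean was 7.98 ± 0.94 in the knockouts and 8.23 ± 1.2 in wild type on the log2 scale (SD). Their summed level ran from 2800 to 15177 normalized counts in the knockouts and from 2468 to 15080 in wild type, and none of the 16 was at 0 in any library. Without WT_HFD replicate 6 the median was -0.36, and over the 17 libraries left out one at a time it ran from -0.44, without WT_HFD replicate 7, to -0.06, without WT_HFD replicate 2. Of 10 pituitary genes 7 were tested, with a median of -0.16 and a summed level of 126 to 361 in the knockouts and of 134 to 539 in wild type. Their list mean was 3.87 ± 0.96 in the knockouts and 4.38 ± 1.01 in wild type (SD). The pituitary median ran from -0.43, without WT_HFD replicate 5, to -0.01, without KO_HFD replicate 9. Gh, encoding growth hormone, had counts of 0, 1 and 116 against 0, 9 and 303, and Prl, encoding prolactin, of 0, 1 and 19 against 0, 5 and 90. The part of the meninges in the values of other genes was not tested here except in the fit with composition covariates described in the closing section. That fit held no pituitary covariate, so the part of the pituitary was not tested.

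Blood genes gave 14646 to 35470 summed counts in the knockouts and 14624 to 39569 in wild type, with a median log2 fold change of -0.05, which was 0.00 without WT_HFD replicate 6. Choroid plexus genes had a median of -0.07 with 4 of 9 above 0, where Otx2 (0.31, SE 0.15) and Folr1 (-0.54, SE 0.21) reached an unadjusted p under 0.05 in opposite directions. Its direction turned with single libraries, from -0.19 without WT_HFD replicate 3 to 0.09 without WT_HFD replicate 4, and a stricter filter on low counts gave 0.00. Markers of neighbouring brain regions had medians of 0.02 for thalamus, -0.00 for cortex and hippocampus, -0.01 for striatum and 0.03 for habenula. In the striatal list Ppp1r1b, encoding DARPP-32, had counts of 440, 477 and 511 against 482, 522 and 611 (-0.16, SE 0.06, adjusted p = 0.948). Only 4 of 11 midbrain and hindbrain markers were tested, with a median of -0.29. It ran from -0.50, without WT_HFD replicate 8, to -0.04, without WT_HFD replicate 2, and was -0.10 in limma-voom with quality weights. Among them Slc6a3, the dopamine transporter gene, ran from 191 to 1903 counts in the knockouts and from 168 to 2219 in wild type.

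The hypothalamic nuclei had list medians between -0.07, for the arcuate and suprachiasmatic nuclei, and 0.04, for the preoptic area. The list of the paraventricular and supraoptic nuclei holds Gpr101 itself, and its other 10 genes had a median of -0.03 with 4 above 0. In the ventromedial nucleus, whose neurons raise energy use, Fezf1, a transcription factor, had counts of 439, 520 and 578 in the knockouts and of 514, 615 and 653 in wild type. All 9 knockouts lay below the wild-type median of Fezf1 (-0.20, SE 0.07, unadjusted p = 0.00831, adjusted p = 0.948). Vip, a peptide of the suprachiasmatic clock, had a log2 SD of 0.80 in the knockouts and 0.22 in wild type, with a log2 fold change of -0.19 (SE 0.31).

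The 3 genes of largest spread in each genotype were 4 in all, with a mean of at least 50 counts. Bpifa1, known as a secreted protein of the airway lining, had counts of 0, 1 and 977 in the knockouts and of 0, 70 and 1604 in wild type. Its log2 SD was 3.90 and 4.24, and neither genotype held its high or low values alone. Cga, encoding the alpha subunit of pituitary glycoprotein hormones, had counts of 2, 36 and 96 against 2, 63 and 135. Prg4, a lubricant protein of connective tissue surfaces, had 38, 82 and 694 against 35, 272 and 842, and H2-Q1, an MHC class I gene, had 7, 26 and 240 against 5, 74 and 215. H2-Q1 is one of a group of near-identical genes, so its counts are uncertain. The limma intervals of these genes were wide, from -5.26 to 1.75 for Bpifa1 and from -2.44 to 1.64 for Cga.

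**Figure D4:**
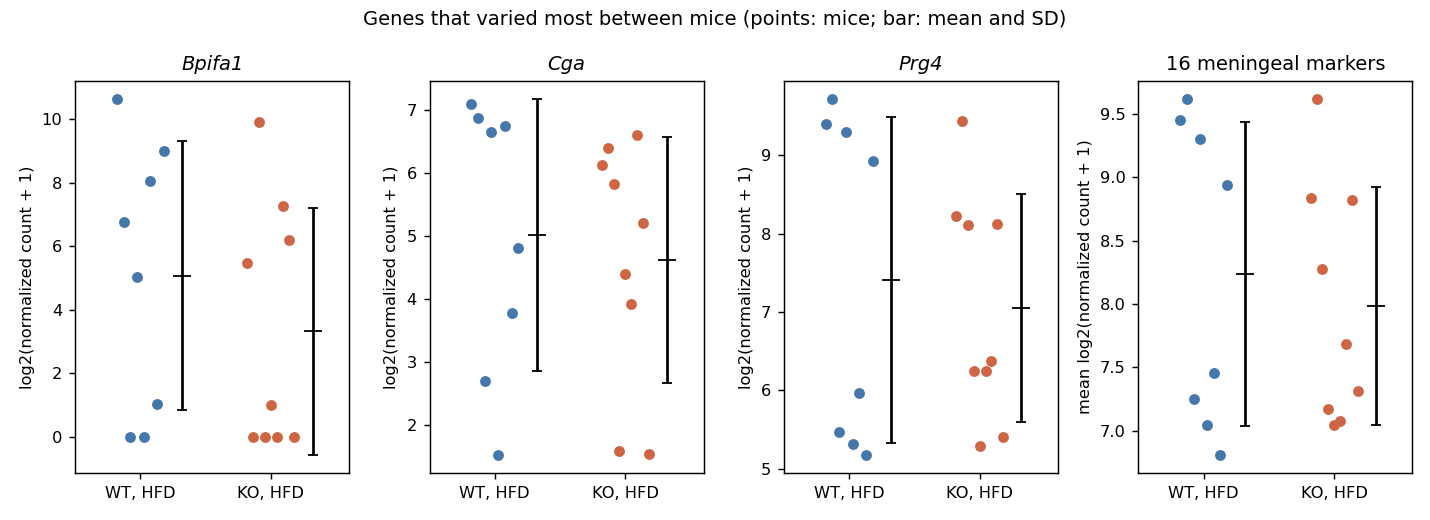
Log2(normalized count + 1) of Bpifa1, Cga and Prg4 and the mean of 16 meningeal markers in each mouse on high-fat diet (points), with the mean and SD of each group (bars). High and low mice occur in both genotypes, and the group means of the meningeal markers, 7.98 and 8.23, differ by less than either SD.

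Genes around the targeted locus came next. Within 2 Mb of Gpr101, 14 other genes were tested, none was called, 11 lay above 0, and the median was 0.03. Limma gave 2 of them an unadjusted p under 0.05. Arhgef6, an activator of Rac, had counts of 611, 651 and 738 in the knockouts and of 554, 609 and 693 in wild type, with all 9 knockouts above the wild-type median (0.11, SE 0.04). Rbmx, a nuclear RNA-binding protein, had 1894, 1975 and 2042 against 1817, 1886 and 1938, again with all 9 above (0.06, SE 0.03). On control diet the 2 genes were at 0.07 and 0.03. Fgf13 (0.06), Smim10l2a (0.05), Mmgt1 (0.03), Ints6l (0.02), Htatsf1 (0.01) and Fhl1 (0.00) were also above 0, as was Brs3, encoding another orphan receptor of energy balance (0.13, SE 0.11). Zfp449 (-0.02), Map7d3 (-0.14, SE 0.27) and the antisense gene Gm2155 (-0.14, SE 0.24) were below it.

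The X chromosome as a whole lay slightly high. Its 679 tested genes other than Gpr101 had a median log2 fold change of 0.01 and 61.1% above 0, against -0.00 and 48.1% over 19213 autosomal genes. At an unadjusted p under 0.05 were 42 X-linked genes (6.19%), 33 of them above 0, and 5.10% of autosomal genes. On control diet 45.9% of the X-linked genes lay above 0. Without WT_HFD replicate 6 the share on high-fat diet was 59.1%. Among X-linked genes it was higher with longer transcripts, from 48.4% in the shortest quartile to 79.0% in the longest.

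Fold changes followed transcript length over the whole genome as well. Genes were split into quartiles of exonic length, the summed length of all annotated exons, a description added after the data were seen. In the longest quartile (4974 genes, from 5989 bases) 62.1% lay above 0, and 226 genes were above 0 and 58 below at an unadjusted p under 0.05. In the shortest quartile (4976 genes, up to 2069 bases) 42.2% lay above 0, with 79 above and 156 below at that p. The medians were 0.01 and -0.02. On control diet the shares were 48.3% and 49.5%.

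Part of this split lay in 1 library. The median deviation of the longest quartile minus that of the shortest, taken per library on the log2 scale, was -0.13 in WT_HFD replicate 6 and between -0.04 and 0.05 in the other 16. Without WT_HFD replicate 6 the share above 0 was 53.4% in the longest quartile and 46.3% in the shortest. Without KO_HFD replicate 8 it was 61.5% and 44.0%, and without both 52.9% and 48.6%. Gene groups with long or short transcripts are read with this in view below.

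**Figure D5:**
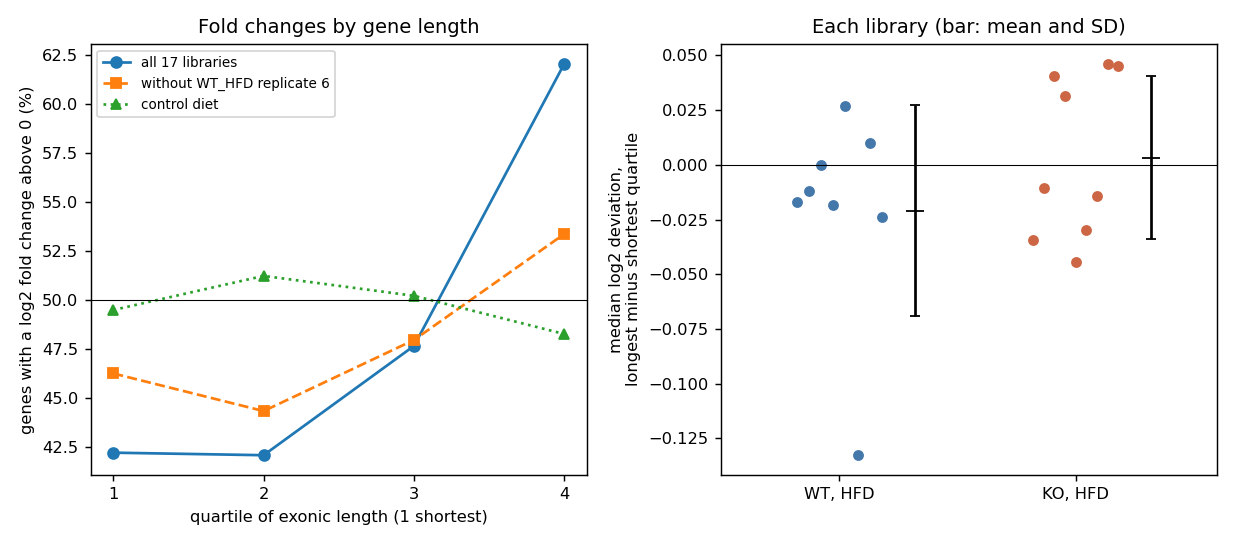
Left, the share of genes with a log2 fold change above 0 in each quartile of exonic length, with all 17 libraries, without WT_HFD replicate 6, and on control diet. Right, the median log2 deviation of the longest quartile minus that of the shortest in each library (points) with the mean and SD of each group (bars), where WT_HFD replicate 6 lies at -0.13 and the others between -0.04 and 0.05.

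Among families of genes for short proteins, cytosolic ribosomal proteins had a median of -0.03, with 16 of 85 above 0 and 2 at an unadjusted p under 0.05. Without WT_HFD replicate 6 the median was -0.01, with 33 of 85 above 0. Mitochondrial ribosomal proteins had 27 of 77 above 0 and a median of -0.02, or -0.01 without that library. The 13 protein-coding transcripts of the mitochondrial genome were all below 0 with a median of -0.06 and 3 at that p, and without that library all 13 were still below 0, with a median of -0.04. mt-Nd4, a subunit of complex I, had a fold of 0.957 (95% interval 0.929 to 0.987, adjusted p = 0.948) and was at 0.02 on the log2 scale on control diet. Nuclear genes for complex I had a median of -0.00 and those for complexes IV and V of -0.03, or -0.00 without that library. Histone genes of the Hist clusters had 8 of 23 above 0 and a median of -0.08, with 3 lower at that p, of which Hist1h4k was at -0.46.

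Among families of neuronal membrane proteins, GABA-A receptor subunits had 13 of 15 above 0, a median of 0.04 and 3 higher at an unadjusted p under 0.05, among them Gabra3 (0.08) and Gabrg3 (0.07). Without WT_HFD replicate 6 the median was 0.03, with 11 of 15 above 0. Serotonin receptors had 10 of 13 above 0 and a median of 0.06, or 0.08 without that library, with Htr1f (0.38) and Htr1b (0.12) at that p. Sodium channels had 9 of 12 above 0 and a median of 0.04, or 0.03 without that library, again with 9 above 0. Ionotropic glutamate receptors, potassium channels and calcium channels had medians of 0.02, 0.01 and 0.01, which were 0.01, 0.00 and -0.01 without that library, with 10 of 17 ionotropic glutamate receptors above 0 in place of 12. The 17, matched by symbol, include Grina (-0.04), which does not encode a receptor subunit. Splicing factors of the Srsf family had 9 of 11 above 0 and a median of 0.03, with Srsf3 (0.08) and Srsf7 (0.07) at that p, and a median of 0.04 with 10 above 0 without that library. None of these families held a called gene.

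Families of the extracellular matrix and of immunity held no call, and their medians ran from below the background to near it. All 11 laminin genes were below 0, with a median of -0.07, or -0.13 without WT_HFD replicate 6, and 0 at an unadjusted p under 0.05. Collagens had 15 of 43 above 0 and a median of -0.05, and integrins 11 of 28 and -0.02. The integrins matched by symbol include Itgb1bp1 (0.09), which encodes an integrin-binding protein and not an integrin. Laminins and collagens are also expressed in the meninges, whose 16 markers had a median of -0.24, and the part of meningeal tissue in these values was not tested. Interferon-induced genes of the Ifit, Oas and Ifi groups had 6 of 27 above 0 and a median of -0.09, MHC genes 7 of 28 and -0.06, and cytochromes P450, which are enzymes of steroid and drug metabolism, 9 of 35 and -0.05. Genes matched by symbol as complement had 8 of 24 above 0 and a median of -0.03, with C2cd5 (0.05), which is not a complement gene, among them. Chemokines and their receptors had 9 of 21 and -0.01, and interleukins and their receptors 16 of 42 and -0.01. The largest families sat at the background, with zinc finger proteins of the Zfp series at -0.00 (176 of 373 above 0) and solute carriers at -0.00 (136 of 283).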

How the data were processed

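Stranded paired-end RNA sequencing was done on total RNA, per the labels' protocols. The submitters' processing notes name STAR 2.7.6a, DESeq2 1.28.1 and the build GRCm38, beside cutadapt 2.10 with Trim Galore 0.6.2. The choice of counter, strand setting and annotation is not given in the sources used here. As values the authors deposited log2 normalized counts, where the log2 of 0.1 stands for 0 reads. Converting them back returned whole reads for 100.0% of values (tolerance 1e-06 reads). Of 55401 identifiers, 55141 had a symbol in the GRCm38 annotation of GENCODE.

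Genes with 10 normalized counts in at least 7 libraries entered limma 3.58.1 (R 4.3.3), on log2(normalized count + 1), with all 4 groups in 1 fit, an intensity trend, robust moderation, two-sided tests and Benjamini-Hochberg adjustment at 0.05. Gene lists and families were described by counts and medians. Families were collected by patterns of gene symbols, which can match a gene of another function.

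Members, lists and the rule for named genes were chosen with earlier results of these data known. The rule takes Gpr101, called genes, the 10 of smallest p in each direction and every gene without overlap (mean of at least 50 counts), 2 members of smallest p of each list, feeding peptides, neighbours within 2 Mb and the 3 of largest spread per genotype. Others named were chosen after their values were seen. A few genes it takes are not reported here. Alternatives are in the closing section. Each limma p-value sets a difference against the spread between mice within groups. That spread is shared over all 4 groups, control diet included, and moderated across genes.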

Additional observations from a re-analysis of the deposited data

Results flagged for a closer look

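Each list mean and each feeding peptide gene was searched, within each genotype, for a mouse far from its group by Dixon's ratio at the 95% level. Of 159 sets searched 12 held such a mouse, and chance gives about 1 in 20. All values here are on the scale of log2(normalized count + 1).

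Among cell type lists, the astrocyte mean was 12.66 in WT_HFD replicate 2, with the other wild-type mice between 12.54 and 12.59. The blood mean was 11.83 in KO_HFD replicate 4, with the other knockouts between 10.50 and 11.05. The leukocyte mean was 6.00 in KO_HFD replicate 2 (the others 4.29 to 4.98), the same mouse in which gliosis and inflammation genes stood at 8.63 (the others 8.21 to 8.41) and meningeal markers were the highest of the knockouts. Granins and peptide processing genes averaged 12.74 in KO_HFD replicate 8, below the other knockouts (12.81 to 12.84), and insulin signalling genes 10.87 in KO_HFD replicate 3, above the others (10.80 to 10.83).

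Among peptide genes, Gal was low in WT_HFD replicate 5 at 9.77 with the others up to 10.19 and Nmb was low in WT_HFD replicate 2 at 5.30 (the others 5.63 to 5.92). Npy was low in KO_HFD replicate 3 at 7.54 (the others 7.82 to 8.08), and Nts was high in WT_HFD replicate 6 at 9.52 (the others 9.12 to 9.26). Ucn3, encoding urocortin 3 of a small perifornical and amygdalar population, was low in 1 mouse of each genotype, at 3.54 in KO_HFD replicate 9 (the others 5.54 to 6.51) and at 3.86 in WT_HFD replicate 8 (the others 5.58 to 6.39).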

How the results depend on the processing

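Gpr101 was the 1 gene called under all 29 alternatives: 11 other planned settings, 17 that left out 1 mouse each, and 1 chosen after the data were seen, which left out WT_HFD replicate 6 and KO_HFD replicate 8 together. Its log2 fold change ran from -11.48 to -11.35 without single mice and was -12.30 at a pseudocount of 0.5, -9.13 at 5 and -12.27 in limma-voom with quality weights. Genes at an unadjusted p under 0.05 numbered 833 without KO_HFD replicate 8, 834 without WT_HFD replicate 2 and 1313 without WT_HFD replicate 5, and 2002 with no filter, when 41338 genes were tested. With 4 covariates for meningeal, choroid plexus, blood and thalamic markers they numbered 1124, and the smallest adjusted p other than that of Gpr101 was 0.205. It was 0.117 without KO_HFD replicate 7, the lowest of any setting. Of 8 pairs with a shared replicate number 4 had deviations correlated over 0.1 (from -0.17 to 0.32), so the numbers were not taken as a pairing. As a hint from the data, 4 of 8 correlated best with their own number, where a random match gives about 1 of 8. With the replicate block 1 gene was called, Gpr101 stood at -11.35, and the medians of pituitary, midbrain and hindbrain, and meningeal markers were -0.01, -0.10 and -0.17. Of 154 other named genes, none of them called, at most 4 changed sign under any setting, and none of the 20 of smallest p did. Those 20 were chosen by p in these same libraries, so an unchanged sign largely follows from that choice. Of 54 list medians up to 16 changed sign, in mice of 150 days alone. Pomc ran from -0.47 without WT_HFD replicate 5 to -0.32 without KO_HFD replicate 3, and the immediate early median was -0.05 without the 2 libraries of lowest weight. Depth limits genes of few counts, as their intervals show.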

Other observations

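Small nucleolar RNAs, which guide chemical marks on ribosomal RNA, had 11 of 16 above 0 and a median log2 fold change of 0.09, with 2 higher and 2 lower at an unadjusted p under 0.05. Without WT_HFD replicate 6 the median was 0.18, again with 11 above 0. The family mean was only 3.77 in the knockouts and 3.70 in wild type on the log2 scale, near the filter of 10 normalized counts. Members at an unadjusted p under 0.05 in limma had SEs from 0.20 to 0.27. Heat shock proteins and co-chaperones had 46 of 64 above 0 and a median of 0.01, with 46 of 64 above 0 also without WT_HFD replicate 6. Insulin-like growth factor binding proteins, several of which are made in the meninges, had 1 of 6 above 0 and a median of -0.13.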
